A study of Mus musculus with 2 samples.

Results

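The 36 genes described here encode the contractile filaments of muscle and the proteins that hold and trigger them: 4 muscle actins, 8 troponin subunits, 6 sarcomeric myosin heavy chains, 6 myosin light chains, 4 tropomyosins and 8 genes of the scaffold and of calcium release. They were taken from a list of symbols, with no threshold on a measured value, out of 43346 genes in the deposited tables, and all 36 were found. Total RNA came from limbs of mouse embryos at 11.5 days of age, strain B6NCrl, healthy and of both sexes, with no treatment or mutant allele in the labels, which do not say whether forelimbs, hindlimbs or both were taken. The only group holds 2 biological replicates, a pool of 109 embryos and a pool of 88 embryos, so there is no contrast between conditions and each value below is given as replicate 1 and then replicate 2, with no p-value. Each library began with 10 ng of RNA longer than 200 nt.

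In a sarcomere, myosin heavy chains with their essential and regulatory light chains pull on thin filaments of actin, along which tropomyosin lies. Calcium released from the sarcoplasmic reticulum binds troponin C, and troponin I and troponin T pass the change on to tropomyosin. Most of these proteins exist as fast skeletal, slow skeletal, cardiac, smooth muscle or non-muscle forms, made from separate genes or by a choice between alternative exons. At this stage of limb development the muscle precursors that migrated from the somites have begun to differentiate.

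The libraries held 43.0 M and 35.1 M expected counts, genes received 40.6 M and 32.3 M of them, and spike-in RNAs took 5.37% and 7.92% of counts. The 36 genes took 93732 and 71366 counts, or 0.231% and 0.221% of those on genes, and without the tropomyosins 0.0345% and 0.0307%. The limb label was checked on 6 mesenchyme markers, and all 6 were detected. Msx1 was at 173 and 175 TPM, Prrx1 at 152 and 147 TPM and Pitx1 at 155 and 114 TPM. Tbx4 was at 28.8 and 27.3 TPM, Tbx5 at 23.45 and 25.71 TPM and Lmx1b at 8.06 and 7.87 TPM. TPM is a level per unit of transcript length, scaled so that every library has one total, and a gene is called detected here at 1 TPM or more in both pools. In bulk tissue, fewer cells of a type and less RNA per cell cannot be told apart.

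Several results turn on exons that exist in 2 copies, of which a transcript takes 1, so these are shown first, from GENCODE M21 on GRCm38. In Tpm1, on the minus strand, the internal exon of 76 bases has an upstream copy at chr9:67032466-67032541 and a downstream copy at chr9:67031951-67032026. They differ at 33 positions, which are in capitals.
Tpm1 upstream copy: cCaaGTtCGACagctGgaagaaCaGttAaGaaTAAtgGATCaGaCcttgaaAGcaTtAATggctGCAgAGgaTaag
Tpm1 downstream copy: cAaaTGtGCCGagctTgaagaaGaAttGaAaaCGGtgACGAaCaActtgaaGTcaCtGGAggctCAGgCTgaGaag

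The tropomyosin C terminus, which overlaps the next molecule along the filament and contacts troponin T, is encoded by the last coding exon. The upstream version is the one known from striated muscle and the downstream one is known from smooth muscle and non-muscle cells. In Tpm1 the 80 coding bases of these exons before the stop codon, at chr9:67029663-67029742 and chr9:67023362-67023441, differ at 45 positions, in capitals.
Tpm1 upstream last exon: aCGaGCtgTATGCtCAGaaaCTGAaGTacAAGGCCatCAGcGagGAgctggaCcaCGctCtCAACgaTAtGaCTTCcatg
Tpm1 downstream last exon: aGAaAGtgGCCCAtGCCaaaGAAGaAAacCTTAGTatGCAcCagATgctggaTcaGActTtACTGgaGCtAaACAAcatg

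Tpm2, on the minus strand of chromosome 4, has the same layout. Its internal copies, at chr4:43519003-43519078 and chr4:43518644-43518719, differ at 35 positions, and its last coding exons, at chr4:43515924-43516003 and chr4:43514782-43514861, differ at 47 of 80.
Tpm2 upstream copy: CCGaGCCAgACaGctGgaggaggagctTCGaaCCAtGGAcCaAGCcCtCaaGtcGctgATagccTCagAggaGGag
Tpm2 downstream copy: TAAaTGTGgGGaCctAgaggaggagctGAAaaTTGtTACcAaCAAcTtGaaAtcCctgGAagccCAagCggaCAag
Tpm2 upstream last exon: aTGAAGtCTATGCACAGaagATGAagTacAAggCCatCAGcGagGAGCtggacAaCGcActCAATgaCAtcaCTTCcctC
Tpm2 downstream last exon: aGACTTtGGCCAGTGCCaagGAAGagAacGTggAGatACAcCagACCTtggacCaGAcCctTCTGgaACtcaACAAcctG

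The troponin T genes are spliced in many ways as well. Tnnt1, on the minus strand of chromosome 7, can skip an exon of 33 bases at chr7:4513581-4513613, shown in capitals between 20 bases of each neighbouring exon and then without it.
Tnnt1 exon included: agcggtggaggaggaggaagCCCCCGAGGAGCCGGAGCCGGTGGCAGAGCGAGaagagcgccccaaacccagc
Tnnt1 exon skipped: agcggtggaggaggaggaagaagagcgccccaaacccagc

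Near its 3′ end the plus-strand gene Tnnt3 takes 1 of 2 exons of 41 bases, at chr7:142513665-142513705 and chr7:142514326-142514366, which differ at 23 positions, in capitals.
Tnnt3 first copy: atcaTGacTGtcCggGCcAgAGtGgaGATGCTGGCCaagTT
Tnnt3 second copy: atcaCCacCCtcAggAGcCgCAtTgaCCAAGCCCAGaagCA

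Of the 36 genes, 27 (75%) were detected, beside 31.3% of all genes and 56.3% of protein-coding genes. The median level was 5.10 TPM, beside 3.02 TPM for protein-coding genes, and without the tropomyosins 23 of 32 genes were detected and the median of the 32 was 4.35 TPM. Detection differed by family: all 3 troponin T, 2 troponin C, 3 troponin I and 4 tropomyosin genes were detected, with 3 of 4 actins, 4 of 6 light chains and 7 of 8 scaffold and calcium genes, but 1 of 6 heavy chains. The 9 genes below 1 TPM in at least 1 pool were Actg2, Myh1, Myh2, Myh6, Myh7, Myh8, Myl2, Myl3 and Casq2. Levels of single genes spanned from 0 for Myh2 to 633 TPM for Tpm4.

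**Figure D1:**
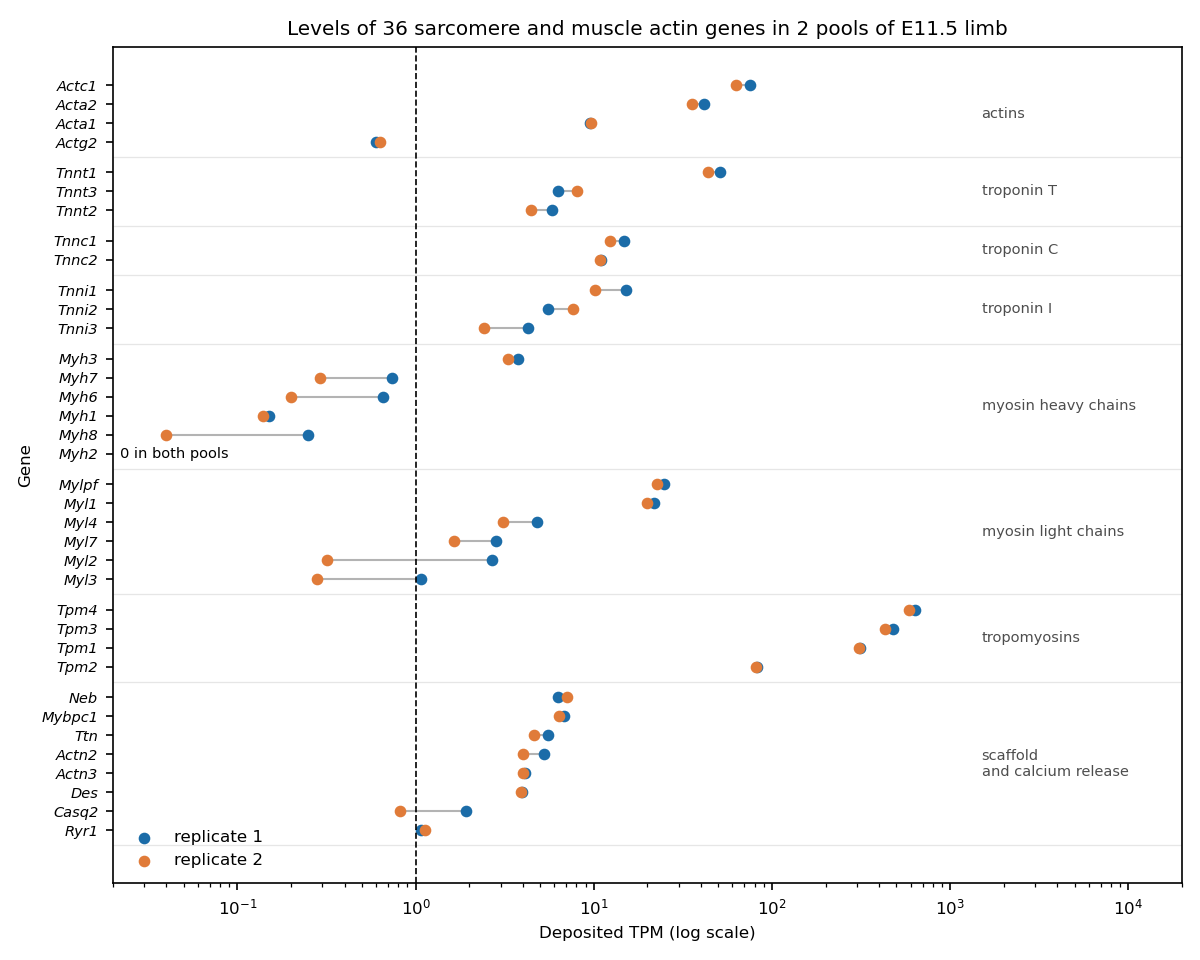
Deposited TPM (log axis) of each gene in replicate 1 (blue) and replicate 2 (orange), grouped by family and joined by a grey line, with a dashed line at 1 TPM. Tropomyosins lie highest, between 81.1 and 633 TPM, Myh3 is the only heavy chain above 1 TPM in both pools, and the widest gaps between pools belong to genes near or below 1 TPM, such as Myl2 at 2.68 and 0.32 TPM.

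Among the actins, the cardiac-type gene Actc1, which is also the first striated actin of developing skeletal muscle, was at 75.5 and 62.9 TPM. Acta2, the smooth muscle actin of vessel walls, was at 41.8 and 35.5 TPM. Acta1, the actin of mature skeletal muscle, was at 9.50 and 9.71 TPM. The order Actc1, Acta2, Acta1 was the same in both pools. Whether 2 genes differ by more than the pools do was judged by a rule: the log2 TPM ratio must have the same sign in both pools, and its smaller size must exceed the 95th percentile of between-pool differences among genes at the lower gene's level. By this rule Actc1 exceeded Acta2 by a mean of 1.79-fold, and Acta2 exceeded Acta1 by 3.98-fold. Actg2, the enteric smooth muscle actin, was at 0.60 and 0.63 TPM from 20 and 15 counts, and its 13.6-fold distance from Acta1 cleared the spread narrowly, with a log2 ratio of 3.75 against 3.74. Of the TPM of both striated actins, Actc1 held 88.8% and 86.6%.

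The 4 actin coding sequences are 82.6% to 86.3% identical. Their last 60 coding bases are printed to show where reads can be told apart, with the 16 positions that are not the same in all 4 genes in capitals.
Actc1: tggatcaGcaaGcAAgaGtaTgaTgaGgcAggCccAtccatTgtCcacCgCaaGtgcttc
Acta1: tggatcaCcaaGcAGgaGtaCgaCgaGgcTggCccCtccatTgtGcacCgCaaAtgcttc
Acta2: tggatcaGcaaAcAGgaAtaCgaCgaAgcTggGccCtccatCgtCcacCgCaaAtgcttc
Actg2: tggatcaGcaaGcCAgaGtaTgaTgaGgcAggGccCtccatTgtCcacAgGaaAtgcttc

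The deposited counts of all 4 actins were whole numbers in both pools to within 0.005. In all, 27 of the 36 genes had whole counts in both pools, while Tnnc2, Myh1, Myh3, Myh6, Myh7, Myh8, Des, Tpm3 and Tpm4 did not, so that some of their reads were split with other genes and their values are less certain.

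Of the troponin T genes, which anchor troponin to tropomyosin, the slow skeletal Tnnt1 was highest, at 51.1 and 44.0 TPM. The fast skeletal Tnnt3 was at 6.34 and 8.03 TPM. The cardiac Tnnt2, which embryonic skeletal muscle also makes, was at 5.80 and 4.45 TPM. Tnnt1 exceeded Tnnt3 by 6.57-fold, more than the spread, and held 79.4% ± 2.07 (SD, n = 2) of troponin T TPM, whereas Tnnt3 and Tnnt2 did not differ beyond the spread between pools.

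The calcium sensors were closer to each other. Tnnc1, the slow and cardiac troponin C, was at 14.8 and 12.3 TPM, and the fast Tnnc2 at 10.9 and 10.8 TPM. Their ratio of 1.24 was within the spread. Both overlap an abundant gene on the opposite strand, Nisch at 273 and 280 TPM for Tnnc1 and Ube2c at 502 and 472 TPM for Tnnc2. No source used here says whether counting used strand. The counts of Tnnc1 were whole, 259 and 178, while those of Tnnc2 were not, 185.07 and 152.27. Whether reads of the partners entered these levels was not tested.

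Of the inhibitory subunits, the slow skeletal Tnni1 was at 15.2 and 10.2 TPM and took 60.8% and 50.3% of troponin I TPM. The fast Tnni2 was at 5.52 and 7.62 TPM and took 22.0% and 37.7%. Tnni1 was thus lower and Tnni2 higher in replicate 2, and the 1.91-fold ratio of their levels was within the spread. The cardiac Tnni3 was listed at 4.30 and 2.43 TPM, but transcripts annotated with a complete coding sequence held only 18.5% and 26.3% of that, or 0.76 and 0.64 TPM. Its largest transcript, of 451 nt and with a retained intron, held 40.6% and 49.8%. Tnni3 also overlaps Dnaaf3 on the same strand.

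Troponin I and T genes lie in pairs in the genome. Tnnt1 and Tnni3 are 1.923 kb apart on chromosome 7, and Tnnt1 exceeded Tnni3 by 14.2-fold, more than the spread. Tnni1 and Tnnt2 are 25.4 kb apart on chromosome 1, and Tnni1 exceeded Tnnt2 by 2.42-fold, also more than the spread. Tnni2 and Tnnt3, 54.4 kb apart on chromosome 7, are both fast skeletal forms and did not differ beyond it. Each pair keeps its strand in common.

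Myosin heavy chains, the motors, were low as a family, with sums of 5.55 and 3.96 TPM. The striated actins Actc1 and Acta1 summed to 85.01 and 72.65 TPM, and all 4 actins, with the smooth muscle forms, to 127 and 109 TPM. Myh3, the embryonic heavy chain, was at 3.75 and 3.29 TPM from 626 and 455 counts and held 67.6% and 83.1% of the family. Myh7, the slow and ventricular form, was at 0.74 and 0.29 TPM, and the atrial Myh6 at 0.66 and 0.20 TPM. The fast adult Myh1 was at 0.15 and 0.14 TPM and the perinatal Myh8 at 0.25 and 0.04 TPM. Myh2, another fast adult form, was listed at 0 in both pools, with deposited upper bounds of 0.0918 and 0.109 TPM. Myh4, a fast adult form outside the set, was at 0.27 and 0.35 TPM from 45 and 49 counts. Within the set, no step in the order below Myh3, nor that from Myh3 to Myh7, was larger than the spread at these low levels. That spread was taken over genes of like TPM, whatever their counts. The deposited TPM intervals of Myh3 (3.41 to 3.98 and 2.93 to 3.52) and Myh7 (0.645 to 1.33 and 0.232 to 0.775) did not overlap. These intervals do not cover differences between pools. Coding sequences of the 6 genes are 77.1% to 91.7% identical, closest in Myh6 and Myh7.

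Light chains of fast skeletal muscle led their classes. Mylpf, the fast regulatory chain, was at 24.8 and 22.7 TPM, and Myl1, the fast essential chain, at 21.7 and 20.0 TPM. Mylpf held 81.9% and 92.0% of regulatory light chain TPM, and Myl1 78.6% and 85.5% of essential light chain TPM. Myl1 makes a long and a short chain from alternative first exons: the short form of 150 codons held 77.4% and 78.5% of its TPM and the long form of 188 codons 18.8% and 16.3%. The atrial and embryonic Myl4 was at 4.83 and 3.10 TPM, 5.27-fold below Myl1, more than the spread. Complete coding transcripts of Myl4 held 2.94 and 1.81 TPM, and its largest transcript, the retained-intron Myl4-204, held 32.1% and 41.8% of the gene. The atrial Myl7 was at 2.82 and 1.65 TPM. Myl2 was at 2.68 and 0.32 TPM and Myl3 at 1.08 and 0.28 TPM, and both are chains of slow and ventricular muscle. The light chains as a family summed to 57.9 and 48.0 TPM, above the heavy chains in both pools.

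**Figure D2:**
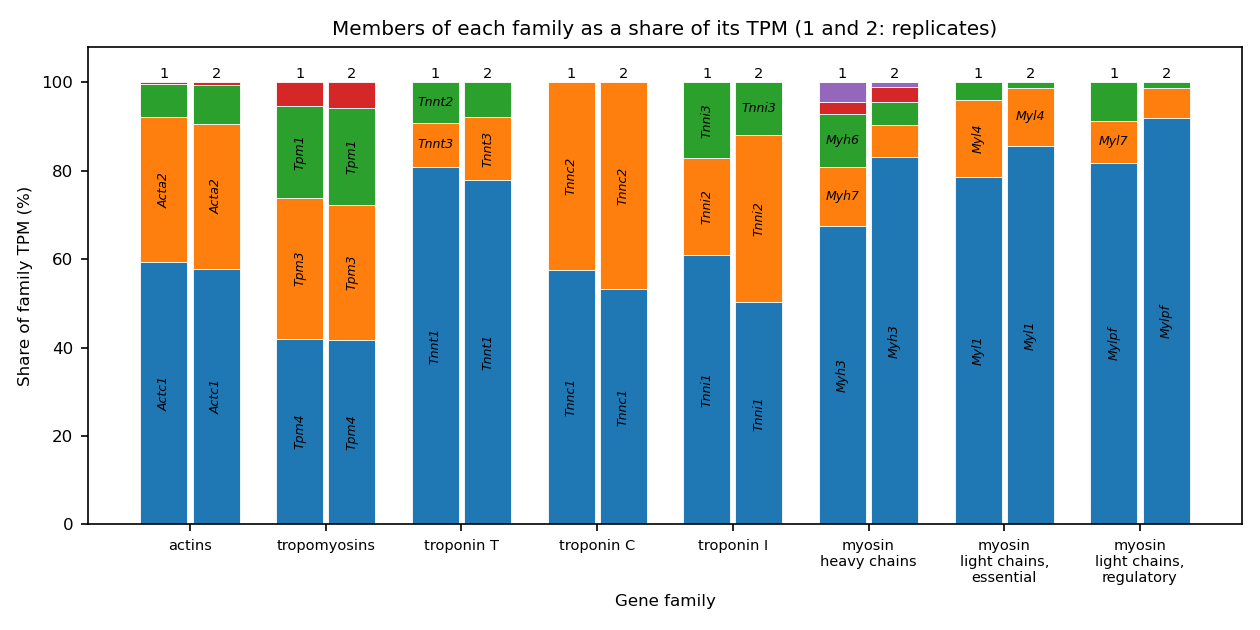
Share of family TPM (percent) held by each gene, with 1 bar per replicate, segments in order of mean share and names on segments above 9%. Tnnt1, Myh3, Myl1 and Mylpf each hold over 67% of their family or class in both pools, while troponin C is divided almost evenly.

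The tropomyosins, which many cell types make, were the most abundant of the 36 genes. Tpm4 was at 633 and 585 TPM, Tpm3 at 479 and 429 TPM, Tpm1 at 313 and 307 TPM, and Tpm2 at 82.3 and 81.1 TPM. Each step in this order exceeded the spread, with mean ratios of 1.34, 1.46 and 3.79. Together they made 1507 and 1402 of the 1847 and 1695 TPM of all 36 genes.

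Transcript estimates showed which forms made up these levels. Tpm4-201, of 248 codons, held 99.8% and 99.9% of Tpm4. Tpm3-201, also of 248 codons, held 89.9% and 89.3% of Tpm3. In that gene the 248-codon forms held 99.5% of complete coding TPM in both pools, and the 284-codon form with the upstream last exon, known as the slow skeletal muscle form, was at 0.83 and 1.01 TPM. The short forms of 248 codons start at an internal promoter and are those of non-muscle cells. Tpm4 and Tpm3 thus consisted almost wholly of short forms.

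Tpm2 and Tpm1 were mixed. In Tpm2, Tpm2-203, with the upstream internal copy and the downstream last exon, was at 57.2 and 56.7 TPM. Tpm2-202, with the downstream internal copy and the upstream last exon, which is the skeletal muscle combination, was at 24.7 and 21.6 TPM, or 30.2% and 27.6% of complete coding TPM. In Tpm1 the 284-codon forms made up 66.0% and 67.0% and the 248-codon forms 28.9% and 25.2%. The upstream, striated-type last exon was in 37.5% and 37.2% of Tpm1, a sum of 112 and 109 TPM, and the downstream one in 57.4% and 55.0%. The upstream internal copy was in 53.6% and 56.4%.

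Single Tpm1 transcripts differed far more between pools than these sums. Tpm1-203, with the upstream internal copy and the upstream last exon, held 0.00% in replicate 1 and 16.2% in replicate 2. Tpm1-205, which has the downstream internal copy instead, held 21.7% and 5.15%. With the downstream last exon the shares moved the opposite way between the internal copies: Tpm1-212, with the upstream copy, held 18.0% and 6.81% and Tpm1-211, with the downstream copy, held 6.14% and 15.9%. Tpm1-213 (29.1% and 28.5%) and Tpm1-201 (10.6% and 12.7%) stayed within 3 points. Thus the estimated share of each exon copy was similar in the pools, while the listed pairing of internal and last exons was not. That pairing rests on transcript estimates, and whether single reads linked both exons was not tested. In the deposited posterior mean TPM, which gives weight to transcripts listed at 0, Tpm1-203 held 2.73% and 15.2% and Tpm1-205 19.5% and 5.58%. The deposited upper bound of Tpm1-203 in replicate 1 was 18.2 TPM.

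**Figure D3:**
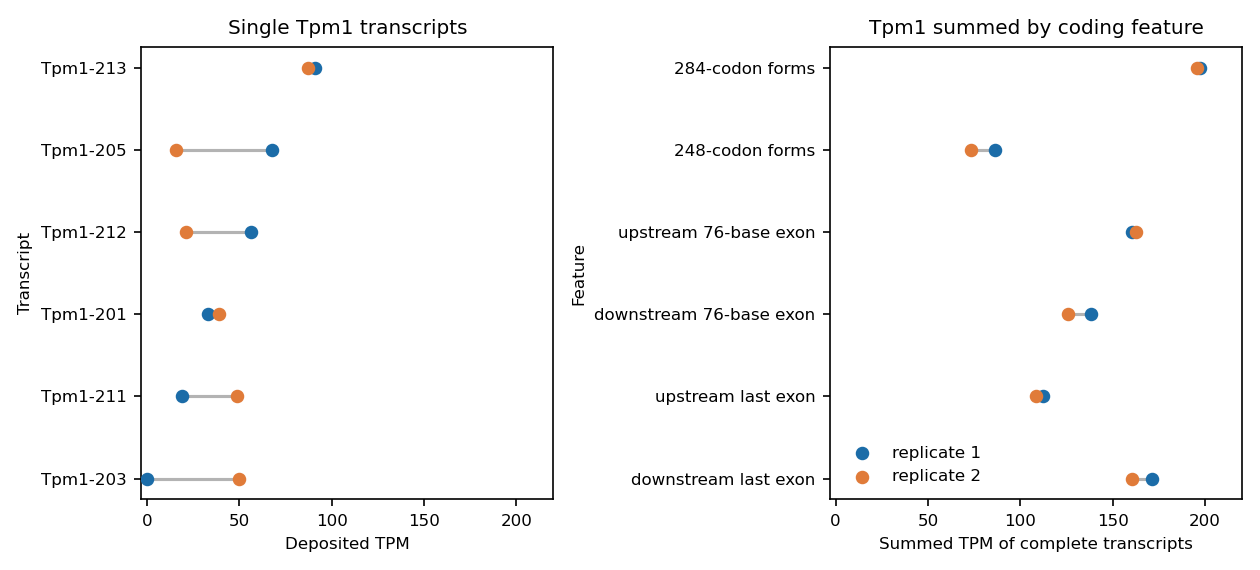
TPM of Tpm1 in replicate 1 (blue) and replicate 2 (orange): on the left the 6 transcripts with at least 10% of the gene in a pool, on the right complete transcripts summed by coding length or by exon copy. Single transcripts such as Tpm1-203 move from 0.01 to 49.7 TPM, while the sum over the upstream last exon is 112 and 109 TPM.

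In Tnnt1 the most abundant transcript was Tnnt1-206, of 250 codons and without the 33-base exon, with 44.6% and 43.9%. Tnnt1-201, which has it, held 18.5% and 23.8%, followed by Tnnt1-203 with 16.7% and 15.1% and the incomplete Tnnt1-209 with 15.9% and 10.7%. The exon was in 38.7% and 43.1% of the TPM of transcripts that span it. The largest listed transcript of Tnnt2 was Tnnt2-207, of 302 codons, at 74.5% and 65.9%, with Tnnt2-204 at 17.4% and 21.4% and Tnnt2-205 at 4.99% and 11.6%. With the deposited posterior mean TPM, an estimate that gives weight to transcripts listed at 0, these became 46.5% and 20.8%, 14.5% and 11.6%, and 7.42% and 14.2%. The makeup of Tnnt2 was thus not settled at this depth. In Tnnt3 the second copy of the 41-base exon was in 83.5% and 89.6%, and the mean of 86.6% became 72.4% with posterior mean TPM. Tnnt3 has 26 annotated transcripts on 146 and 153 counts. Tnnt3-201, of 248 codons, held 34.1% and 39.7%, Tnnt3-213 18.6% and 17.6%, and Tnnt3-223 13.0% and 11.9%. Tnnt3-206 held 0% and 14.3% and Tnnt3-215 held 12.8% and 0%, so each was listed at 0 in 1 pool. With posterior mean TPM, Tnnt3-201 held 16.8% and 21.9%, Tnnt3-213 6.44% and 4.68% and Tnnt3-223 5.12% and 3.63%, and the other two were under 5% in both pools.

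Of the scaffold genes, Ttn, the giant spring from Z-disc to M-band, was at 5.54 and 4.62 TPM. Neb, which runs along the thin filament, was at 6.29 and 7.10 TPM. These gene levels rested on short annotated transcripts: complete coding transcripts held 12.1% and 11.0% of the TPM of Ttn, or 0.67 and 0.51 TPM, but 82.9% and 77.0% of its counts. Ttn-215, an incomplete transcript of 2159 nt, held 52.8% and 48.6% of Ttn. For Neb, complete transcripts held 10.5% and 8.16% of TPM and 71.6% and 63.7% of counts, and the non-coding Neb-204 of 1000 nt held 80.9% and 77.8%. Counting only complete coding transcripts, 24 of 36 genes were detected, the 3 lost being Tnni3, Ttn and Neb.

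The other scaffold and calcium genes lay at 1.08 to 6.79 TPM in replicate 1 and at 0.82 to 6.37 TPM in replicate 2. Mybpc1, the slow-type myosin-binding protein C, was at 6.79 and 6.37 TPM, of which complete coding transcripts held 4.11 and 4.0 TPM. Actn2 and Actn3, the Z-disc alpha-actinins, were at 5.25 and 4.0 TPM and at 4.13 and 4.0 TPM. Des, the muscle intermediate filament, was at 3.96 and 3.92 TPM. Ryr1, the calcium release channel of skeletal muscle, was at 1.08 and 1.13 TPM over 462 and 405 counts. Casq2, the cardiac and slow muscle calsequestrin that stores calcium, was at 1.92 and 0.82 TPM.

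The pools were compared as the log2 ratio of TMM-scaled CPM, replicate 2 over replicate 1, for genes with at least 20 counts over both. Of 35 such genes in the set, 6 differed by at least 2-fold, beside 4.44% of all genes. All 6 were lower in replicate 2, beside 2.29% of all genes, and 0 were higher, beside 2.16% of all genes. Among genes with 100 to under 1000 counts, 3 of 19 passed the fold, beside 1.69% of all genes at that depth in either direction and 0.982% lower in replicate 2. Among those with 20 to under 100 counts 3 of 7 did, beside 20.4% in either direction and 10.3% lower. None of the 9 genes with 1000 or more counts did, beside 0.0110%. The pool and its library cannot be told apart, and there is 1 of each on either side.

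Myl2 had 41 and 2 counts, a log2 ratio of -3.77, with a 95% exact binomial interval of -7.13 to -2.10 that covers counting error only. Myh8 had 42 and 5 counts (-2.65) and Myl3 had 23 and 3 counts (-2.46). Myh6 had 112 and 28 counts (-1.67, interval -2.34 to -1.08), Myh7 had 126 and 41 (-1.29, interval -1.85 to -0.78) and Casq2 had 133 and 47 (-1.18, interval -1.70 to -0.69). With posterior mean TPM, Myh6 and Casq2 were no longer past 2-fold. The following genes of the set, also known from cardiac or slow muscle, did not pass 2-fold and were lower in replicate 2. Their log2 ratios were -0.73 for Tnni3, -0.71 for Myl7, -0.65 for Myl4, -0.47 for Tnni1 and -0.39 for Tnnt2. Smaller differences were those of Tnnc1 (-0.22), Actc1 (-0.21), Tnnt1 (-0.14) and Mybpc1 (-0.02). Myh3 had a log2 ratio of -0.14, Actn2 one of -0.36, and Tpm1, which many cell types make, one of 0.04. Myl3 overlaps Pth1r (23.7 and 27.2 TPM) on the opposite strand.

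**Figure D4:**
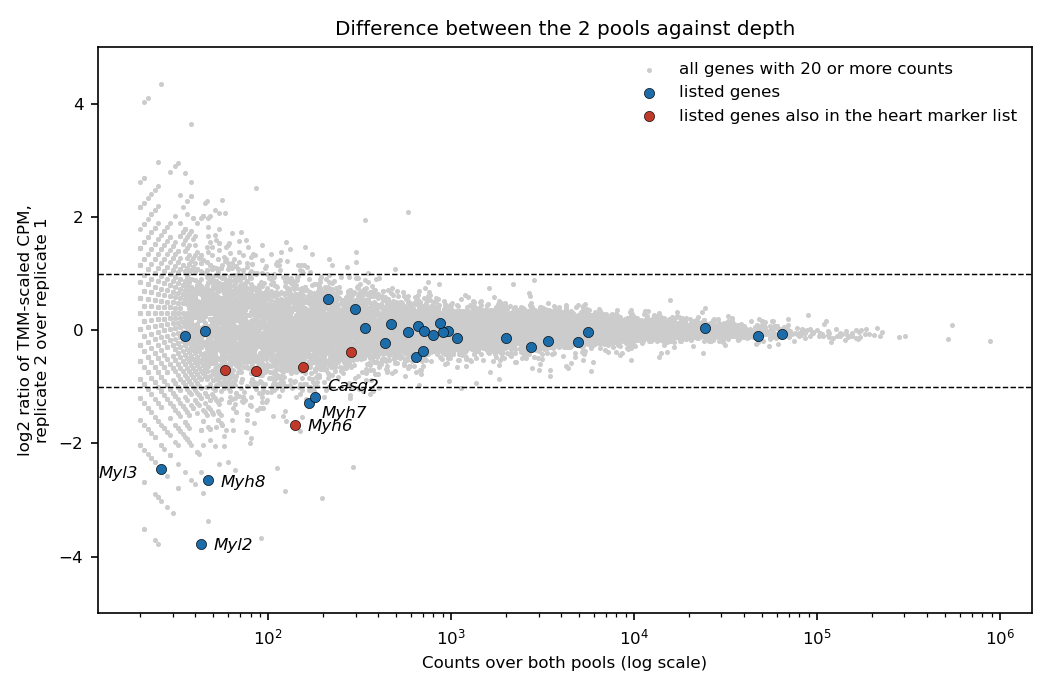
Log2 ratio of TMM-scaled CPM (replicate 2 over replicate 1) against counts over both pools (log axis) for all genes with 20 or more counts (grey), the listed genes (blue) and those also in the heart list (red), with dashed lines at 2-fold. The 6 named genes lie below the lower line and none of the set lies above the upper one.

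A list of heart markers was examined beside these genes. Of its 14 genes, 5 belong to the set (Tnnt2, Myl4, Tnni3, Myl7 and Myh6) and 9 do not. Summed TPM of the list was 22.8 and 14.1, and that of the 9 other genes 4.42 and 2.31, of which 1, Pln, was detected. Of 10 list genes with at least 20 counts, 9 were lower in replicate 2, with a median log2 ratio of -0.68 beside -0.01 for all genes. Of these 10, 3 were past 2-fold lower, beside 2.29% of all genes, and 1 higher, beside 2.16%, which was Ryr2 with 9 and 26 counts. Among the 9 genes outside the set, 5 had 20 counts, and 4 of those 5 were lower in replicate 2. The median log2 ratio of the 5 was -0.37, with 2 past 2-fold lower, beside 2.29% of all genes, and 1 higher, beside 2.16%. The atrial hormone gene Nppa had 34 and 4 counts, Pln 129 and 80, Mybpc3 26 and 8, and Gata4 23 and 17. Nppa, Mybpc3, Gata4 and Ryr2 thus each had under 100 counts over both pools. Among all genes with 20 to under 100 counts, 10.3% were past 2-fold lower and 10.0% higher. Counts were 0 and 4 for Nkx2-5, 6 and 2 for Tbx20, 2 and 0 for Nppb, and 1 and 0 for Bmp10. The part of heart RNA in the differences between pools was not tested.

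Across the 35 genes the median log2 ratio was -0.14, beside -0.01 for all genes, with 28 lower and 7 higher in replicate 2 (25 and 10 with total counts as the scale). Scaling to the spike-ins moved the median of all genes to -0.59 and left 0 of the 35 higher, and with either scale 27 lay below the median of all genes. The highest ratio in the set was that of the fast Tnni2, with 97 and 114 counts and a log2 ratio of 0.55 (interval 0.15 to 0.96), followed by the fast Tnnt3 with 146 and 153 counts and 0.38 (0.05 to 0.72), both below 0 after spike-in scaling. Other fast skeletal genes of the set were near 0, with Tnnc2 at 0.03, Mylpf at -0.01 and Myl1 at -0.09. The fast Myh1 was at -0.01, but from 25 and 20 counts with a wide interval (-0.93 to 0.90). Actn3 was at 0.10. Outside the set, the fast Myh4 was at 0.43 and the fast muscle calcium pump Atp2a1 at 0.22. The slow Tnni1 had 408 and 237 counts and a log2 ratio of -0.47 (interval -0.70 to -0.23), and the slow Tnnt1 1149 and 840 counts and -0.14 (-0.27 to -0.01). No common direction of fast or of slow genes was tested. The fast and slow troponin I genes thus lay on opposite sides of the median of all genes.

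Smooth muscle markers were examined beside Acta2. Of 12 listed genes, including Acta2 and Actg2, 6 were detected and none of the 11 with 20 counts passed 2-fold. The list summed to 124 and 119 TPM, and without Acta2 and Actg2 to 81.75 and 82.49 TPM. The mural receptor Pdgfrb was at 39.2 and 40.6 TPM, the smooth muscle cytoskeletal gene Smtn at 30.5 and 28.9 TPM and Synpo2 at 4.09 and 3.82 TPM. Also detected were Tagln, at 3.3 and 4.48 TPM, and Mylk, at 2.8 and 2.71 TPM. Below 1 TPM in both pools were Cnn1 (0.38 and 0.47), Lmod1 (0.3 and 0.2), Myocd (0.69 and 0.8) and Rgs5 (0.42 and 0.51). Myh11, the smooth muscle heavy chain, had 3 and 1 counts. The part of smooth muscle and mural cells in the level of Acta2 was not tested. Among 10 regulators of muscle precursors, 7 were detected, led by Myog (24.1 and 23.3 TPM), Myod1 (17.4 and 17.1 TPM), Myf5 (16.0 and 14.2 TPM) and Mef2c (7.80 and 8.26 TPM), and none of the 8 with 20 counts differed by 2-fold between pools.

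Other genes of the muscle apparatus were counted in the same way. Of 70 other muscle genes in 4 lists, 29 were detected, with a median of 0.73 TPM. Of 31 other Z-disc, M-band and filament genes 8 were detected, led by Obsl1, an obscurin-like adaptor (53.0 and 53.4 TPM), Pdlim3 (8.16 and 7.34 TPM), Mybph (3.82 and 2.55 TPM) and Nexn (2.26 and 2.43 TPM). Of 10 genes of myofibril assembly and turnover 5 were detected, led by the chaperone Cryab (4.71 and 6.38 TPM), with Klhl41 at 2.76 and 2.01 TPM, Smyd1 at 2.90 and 1.29 TPM and the myosin chaperone Unc45b at 1.96 and 1.62 TPM.

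Of 23 genes of excitation, calcium handling and junctions 11 were detected. Srl, a protein of the sarcoplasmic reticulum, was at 23.1 and 23.5 TPM and dystrophin, Dmd, at 15.0 and 15.4 TPM. The fast muscle calcium pump Atp2a1 was at 12.9 and 16.9 TPM and the calcium channel subunit Cacnb1 at 5.34 and 5.31 TPM. Of 6 genes of muscle metabolism 5 were detected, with muscle enolase Eno3 at 42.2 and 36.5 TPM, Pgam2 at 12.9 and 10.4 TPM, muscle creatine kinase Ckm at 2.08 and 2.83 TPM and myoglobin, Mb, at 1.73 and 1.33 TPM. Of 58 of these 70 genes with 20 counts, 5 were past 2-fold lower in replicate 2, beside 2.29% of all genes, and 3 higher, beside 2.16%. The 5 lower genes (Myot, Mybpc3, Trim54, Cacng1 and Jph2) had under 100 counts over both pools. So did Jsrp1 and Ryr2 of the 3 higher, while Trim55 had 41 and 74 counts. Among all genes with 20 to under 100 counts, 10.3% were past 2-fold lower and 10.0% higher.

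Promoter sequence was available for 31 of the 36 genes from RefSeq (GRCm38.p6), and the 250 bases before each start were searched on both strands. The 31 genes gave 36 windows. A CArG box is the site of serum response factor in actin promoters. It stood in 4 of the 36 windows, beside 1.47% of 32851 windows of all genes. Only the strict form was searched, CC and GG with nothing but A or T between them. Boxes with other letters inside were not counted. The E-box CAGCTG, of the kind that myogenic bHLH factors bind and a form of the broader CANNTG, stood in 33.3% of windows, beside 13.0% of all. CANNTG stood in 83.3% beside 66.2%, the MEF2 box in 11.1% beside 2.92% and TATAAA in 19.4% beside 12.4%. A match describes letters and is not a shown binding site. The 4 CArG boxes, in capitals with 10 bases on each side, lie at chr2:114052903-114052932 (Actc1), chr8:123894829-123894858 (Acta1), chr9:110763583-110763612 (Myl3) and chr11:5898824-5898853 (Myl7), and start 47, 73, 85 and 61 bases before the start, each read on the strand of its gene.
Actc1 box: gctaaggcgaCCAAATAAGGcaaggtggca
Acta1 box: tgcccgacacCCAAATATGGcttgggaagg
Myl3 box: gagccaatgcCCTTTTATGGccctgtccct
Myl7 box: ccattcctctCCTTATTTGGgcctctgggt

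The 4 genes with a CArG box ranged from Actc1 at 75.5 and 62.9 TPM to Myl3 at 1.08 and 0.28 TPM, so genes that share the letters did not share a level.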

How the data were processed

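The authors deposited a gene and a transcript table per library, quantified per the file headers from alignments to mm10 with GENCODE M4, with RSEM column names. The aligner, its version and strand use were not given in the sources used here. Deposited expected counts are estimated reads and not normalised, deposited TPM is scaled over all entries with spike-ins, and each transcript's deposited percent is its share of gene TPM. GENCODE M21, also on GRCm38 (mm10), gave symbols for 42462 gene IDs, with 884 unmatched. The symbol list uses no measured value, but it and the other lists were drawn up with earlier results of these data known.

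Counts were rounded and scaled by TMM (edgeR 4.0.16, R 4.3.3) or DESeq2 1.42.0 size factors, with a prior count of 0.5. With 1 pool on each side there is no test. Pair ratios used a pseudocount of 0.1 and 20 abundance bins. Intervals are exact binomial at 95%. Detected genes, transcripts of at least 10%, genes of the set past 2-fold and the 4 highest of each list were named. The ratio was checked on simulated counts. Complete coding means that the annotation marks no missing start or end. Alternatives were thresholds, posterior mean TPM, rescaled TPM, other scalings, priors and pseudocounts, and leaving out a pool. The count over complete coding transcripts was added after the data were seen.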

Additional observations from a re-analysis of the deposited data

How the results depend on the processing

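No paired analysis was possible because the labels give 1 group, so replicate numbers pair nothing. The 6 genes past 2-fold were the same 6 with DESeq2 size factors, total counts or a prior count of 2. Spike-in scaling gave 10 past 2-fold and 10 lower in replicate 2, adding Myl4, Myl7, Tnni1 and Tnni3. The ratio of posterior mean TPM gave 4, without Casq2 and Myh6. Posterior mean TPM moved the share of Tnnt1 to 76.7%, that of Myh3 to 61.9%, the long Tpm1 form from 66.5% to 65.6% and the short Tpm3 form to 99.4%, and it called 14 instead of 10 of 24 pairs larger than the spread (Tnni1 over Tnni2, Myh3 over Myh7, Myh6 over Myh1 and Myl2 over Myl3 were added). A pseudocount of 1 added Myh3 over Myh7, for 11 pairs. The mean over pools of the median level, 5.03 TPM, became 5.80 with posterior mean TPM and 5.87 when TPM was rescaled to genes. At 2 TPM, 16 instead of 29 other muscle genes were detected. Detected genes of the set ranged from 27 to 30 with a pool left out and from 25 to 29 with other thresholds. The cause of these shifts was not tested. Genes under about 100 counts limit the comparison of pools, since 20.4% of all genes with 20 to under 100 counts passed 2-fold.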
